A study of Mus musculus with 4 samples.

Results

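Interferon-stimulated genes are transcribed when a cell senses interferon, a cytokine of the antiviral response, and 9 of them were followed here in ribosome-bound RNA from mouse brain: the transcription factor genes Stat2, Irf9 and Irf7 and the effector genes Ifit1, Ifit3, Isg15, Bst2, Ifitm3 and Ifi27. The members were listed by gene symbol, with earlier results of these data known, and all 9 were found among the 55471 genes of each count table. All 9 passed the filter on low counts, as did 15816 genes in all, and none had a mean below 1 CPM, that is, a count scaled to the library total.

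The libraries came from the pull-down of tagged ribosomes in male mice of genotype GFAP-Cre+/- Rpl22HA/wt, in which Cre under the promoter of the astrocyte filament gene Gfap switches on an HA tag on the ribosomal protein Rpl22. The design text gives an age of 8 to 9 weeks, chow with 0.2% cuprizone by weight for the treated mice, normal chow for matched controls, and corpus callosum as the dissected tissue. Cuprizone is a copper chelator that kills oligodendrocytes and strips myelin. There were 2 cuprizone and 2 mock libraries, all labelled batch 1 and 3 weeks, while the design text speaks of collection at 5, 5.5 and 7 weeks, and the labelled time is used here. All 4 libraries carry the Cre and the tagged allele, and the labels do not say whether a library is 1 animal or a pool, so the p-values cover the variation among libraries only.

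Type I interferons bind a receptor made of Ifnar1 and Ifnar2, whose kinases Jak1 and Tyk2 phosphorylate STAT proteins, among them Stat2. Phosphorylated Stat2 and Irf9 are parts of the factor ISGF3, which binds interferon-stimulated response elements (ISREs) in the promoters of its targets. Stat2, Irf9 and Irf7 are themselves such targets, so the response feeds back on its own machinery. In the brain, astrocytes, microglia and endothelial cells can all mount it.

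Promoters of the members hold the letters of that element more often than promoters at large. The letters were not read in choosing the members by symbol, but the members were listed as interferon-stimulated genes. The excess is therefore not independent of the choice. The ISRE-like core searched was GAAANNGAAA, which reads TTTCNNTTTC on the other strand, with N for any base, over the 250 bases before and the 50 after each start in RefSeq (build GRCm38.p6). It occurred in 6 of the 8 members with a promoter entry, and 5 of these had it at least 2 times, overlapping matches counted. By promoter, these were 66.7% of the members' 9 entries with the core and 55.6% with it 2 or more times, against 3.44% and 0.225% of all 32851 promoters listed. The other genes of the interferon pathway lay between, with 36.0% and 14.0% of their 100 promoters. Ifi27 was not in the table, and no match was found for Irf7 or for either start of Irf9, which says only that these letters are not in those windows. The 6 windows are shown on the strand of the gene, with the matches in capitals, because they show how the elements are arranged in the genes described below.

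Isg15, chr4:156200845-156200926, minus strand, bases -108 to -27 from the start: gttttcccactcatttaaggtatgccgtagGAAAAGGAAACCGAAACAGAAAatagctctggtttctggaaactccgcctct
Bst2, chr8:71537557-71537632, minus strand, bases -160 to -85: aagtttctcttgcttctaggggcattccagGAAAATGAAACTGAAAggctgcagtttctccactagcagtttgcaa
Ifitm3, chr7:141010716-141010742, minus strand, bases 3 to 29 after the start: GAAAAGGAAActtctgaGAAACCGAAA
Ifit1, chr19:34640755-34640843, plus strand, bases -134 to -46: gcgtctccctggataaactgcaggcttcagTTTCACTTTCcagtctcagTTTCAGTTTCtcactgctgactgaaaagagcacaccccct
Ifit3, chr19:34583343-34583446, plus strand, bases -186 to -83: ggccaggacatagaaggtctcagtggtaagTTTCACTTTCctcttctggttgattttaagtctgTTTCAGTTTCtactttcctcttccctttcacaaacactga
Stat2, chr10:128270248-128270315, plus strand, bases -250 to -183: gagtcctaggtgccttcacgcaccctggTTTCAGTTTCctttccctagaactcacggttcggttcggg

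In Isg15 the 3 matches overlap in 1 block, and in Bst2 the 2 matches do so, while those of Ifit1, Ifit3 and Ifitm3 stand apart. Ifit1 and Ifit3 share the order of their matches, TTTCACTTTC before TTTCAGTTTC, and both read on the strand opposite to that of Isg15, Bst2 and Ifitm3. Stat2 has 1 match, also on the opposite strand. A GAS-like element, TTCNNNGAA, the letters bound by STAT dimers after interferon gamma, was found in Bst2, where it overlaps the first ISRE-like match, and in Ifitm3, where it overlaps the second. It was in 2 of the members' 9 promoters, 26 of the 100 of the other pathway genes and 8.30% of all promoters. A match describes the letters and is not a binding site.

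**Figure D1:**
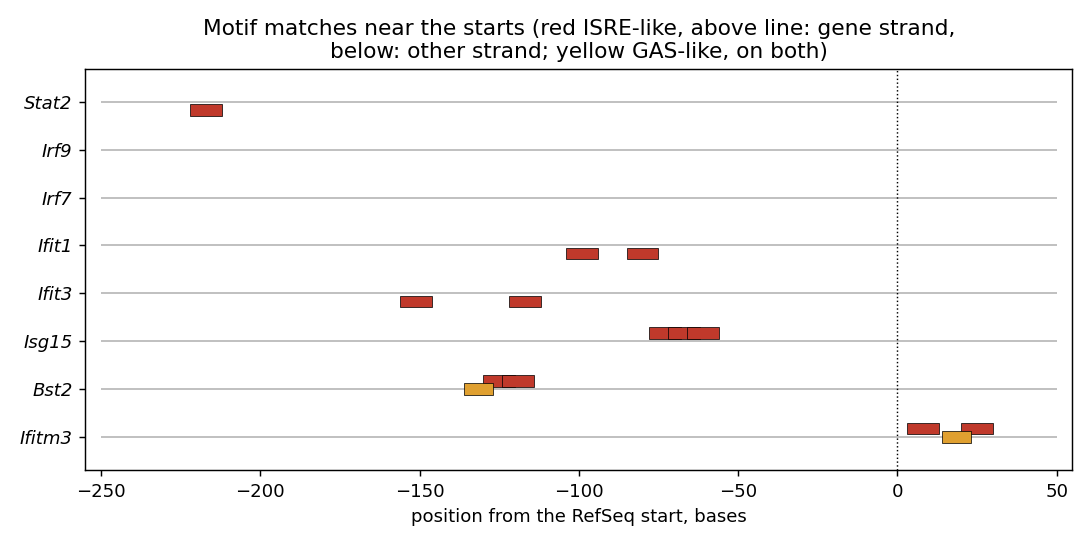
Motif matches by position from the RefSeq start (x axis, bases) in the 8 members with a promoter in the table, 1 line per gene. Red boxes are ISRE-like cores, above the line on the gene's strand and below it on the other, and yellow boxes are GAS-like elements. The matches of Isg15, Bst2, Ifit1 and Ifit3 lie between -156 and -57, that of Stat2 begins at -222, those of Ifitm3 lie just after the start, and Irf7 and Irf9 have none.

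The comparison asks whether the ribosome-bound RNA of these genes differed with the diet. All 9 members had negative log2 folds of cuprizone over mock in the edgeR quasi-likelihood fit, with a median of -0.80, against a median of 0.00 over all 15816 genes tested (0.0006 unrounded). Bst2, Ifitm3 and Isg15 lay lowest, with both cuprizone libraries well below both mock libraries, while Stat2 and Ifi27 stood near 0 and the groups of Irf9, Irf7 and Ifit1 overlapped. None of the 9 passed an adjusted p of 0.05 over all genes, by edgeR, DESeq2 or limma-voom, and 0.0822% of all genes did so by edgeR. At an unadjusted edgeR p under 0.05, 3 of 9 members were lower, against 7.04% of all genes, and 0 of 9 higher, against 5.73%. The count of lower members was 0 without mock replicate 2 and 2 without cuprizone replicate 1. Both cuprizone libraries were below both mock libraries in 4 of 9 members, against 18.9% of all genes, and above them in 0 of 9, against 25.7%. An exact permutation test of 2 libraries against 2 cannot give a 2-sided p below 0.333. The median moved with the libraries: leaving out mock replicate 1 gave -1.24, leaving out mock replicate 2 gave -0.16, and leaving out a cuprizone library gave a value between these.

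**Figure D2:**
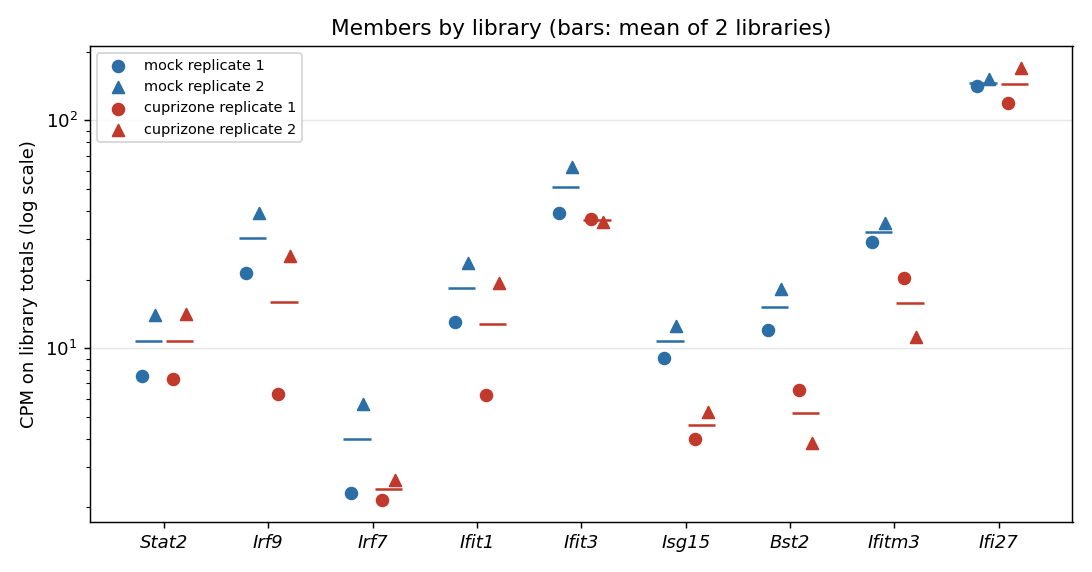
CPM on library totals (y axis, log scale) of the 9 members in each of the 4 libraries, with bars for the mean of the 2 libraries of a group (blue mock, red cuprizone; circles replicate 1, triangles replicate 2). The red points of Isg15, Bst2 and Ifitm3 lie clear below the blue ones, those of Ifit3 lie just below, and in the other 5 members the groups overlap.

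Stat2, Irf9 and Irf7 are the 3 transcription factor genes among the members, and in none of them did the groups separate. Stat2, the STAT that Irf9 binds in ISGF3, had 7.33 and 14.1 CPM in cuprizone replicates 1 and 2 and 7.51 and 14.0 CPM in mock replicates 1 and 2. The groups coincided, and in each of them replicate 2 was nearly double replicate 1, by 1.92-fold and 1.87-fold. The means were 10.7 CPM ± 4.79 in cuprizone and 10.8 ± 4.59 in mock (SD, n = 2 each), and the log2 fold was -0.07 (SE 0.52, 95% interval -1.33 to 1.19; edgeR adjusted p = 0.982). It was 0.33 once cuprizone replicate 1 was left out and 0.47 once mock replicate 2 was.

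Irf9, the DNA-binding subunit that directs ISGF3 to the ISRE, had 6.27 and 25.5 CPM in the cuprizone libraries and 21.5 and 39.2 CPM in the mock libraries. Cuprizone replicate 1 was the lowest of the 4, and cuprizone replicate 2 lay between the mock libraries. The 2 cuprizone values came from 137 counts (95% Poisson interval 115 to 162) and 607 counts (560 to 657), so their 4.06-fold gap is wider than counting error, which is all that such intervals cover. The log2 fold was -0.997 (SE 0.66; edgeR adjusted p = 0.614), and it was -2.35 without cuprizone replicate 2 and -0.31 without cuprizone replicate 1.

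Irf7, the factor that amplifies type I interferon production once it is itself induced, was the least abundant member. It had 2.15 and 2.64 CPM in cuprizone and 2.31 and 5.66 CPM in mock libraries, from 47, 63, 51 and 120 counts. Mock replicate 2 alone stood above the other 3 libraries. The log2 fold was -0.80 (SE 0.75; edgeR adjusted p = 0.752) and was 0.01 without mock replicate 2.

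The IFIT genes encode cytoplasmic proteins that bind foreign RNA and block its translation. Ifit1 had 6.23 and 19.4 CPM in cuprizone and 12.98 and 23.6 CPM in mock libraries. As for Irf9, cuprizone replicate 1 was the lowest library and cuprizone replicate 2 lay within the mock range, 3.11-fold above replicate 1. The log2 fold of Ifit1 was -0.58 (SE 0.60; edgeR adjusted p = 0.789), with -1.63 without cuprizone replicate 2 and 0.03 without cuprizone replicate 1.

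Ifit3, which stabilises Ifit1, had 37.0 and 35.8 CPM in cuprizone and 39.4 and 62.1 CPM in mock libraries. Both cuprizone libraries were below both mock libraries, by little in the case of mock replicate 1. The means were 36.4 CPM ± 0.818 and 50.8 ± 16.1 (SD, n = 2 each), and the log2 fold was -0.55 (SE 0.28; edgeR adjusted p = 0.492) that was -0.16 without mock replicate 2 and -0.84 without mock replicate 1. The count of Ifit3 is uncertain, because 51.2% of the 50-base words of its transcripts also occur in its near-copy Ifit3b, and how reads that map to several places were counted is not given in the sources used here. Ifit3b had 23.2 and 30.3 CPM in cuprizone and 16.6 and 32.0 CPM in mock libraries; its log2 fold was 0.07 (SE 0.39; edgeR adjusted p = 0.978) that turned to -0.15 when cuprizone replicate 2 was left out and to -0.33 when mock replicate 1 was. Summed, a step chosen after the values were seen, the pair had 60.2 and 66.2 CPM in cuprizone and 56.0 and 94.2 CPM in mock libraries, so the groups overlapped.

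Isg15, Bst2 and Ifitm3 had the lowest folds of the 9, and like Ifit3 they lay lower in cuprizone libraries without overlap. Isg15, a ubiquitin-like protein that is attached to other proteins, had 3.98 and 5.25 CPM in cuprizone and 9.05 and 12.4 CPM in mock libraries. The higher cuprizone library was well below the lower mock library. Its means were 4.62 CPM ± 0.893 and 10.7 ± 2.41 (SD, n = 2 each), and the log2 fold was -1.29 (SE 0.46, 95% interval -2.40 to -0.17; edgeR adjusted p = 0.326).

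Bst2, or tetherin, holds budding virus particles at the cell surface. It had 6.55 and 3.82 CPM in cuprizone and 12.03 and 18.2 CPM in mock libraries, from 143, 91, 266 and 387 counts. Of the 9 members it had the lowest log2 fold, -1.62 (SE 0.47, 95% interval -2.76 to -0.47; edgeR adjusted p = 0.262), with means of 5.18 CPM ± 1.93 and 15.1 ± 4.395 (SD, n = 2 each).

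Ifitm3, a membrane protein that hinders the fusion of viruses with endosomes, had 20.2 and 11.2 CPM in cuprizone and 29.4 and 35.4 CPM in mock libraries. The groups did not overlap. The means were 15.7 CPM ± 6.39 and 32.4 ± 4.25 (SD, n = 2 each), and the log2 fold was -1.11 (SE 0.37, 95% interval -1.998 to -0.23; edgeR adjusted p = 0.299). Of its 629 words of 50 bases, 63 also occur in transcripts of other genes. Leaving out 1 library at a time, the folds stayed between -1.51 and -1.02 for Isg15, -2.04 and -1.26 for Bst2 and -1.59 and -0.76 for Ifitm3. Over the 14 alternative settings the adjusted p ran from 0.281 to 0.693 for Isg15, from 0.0765 to 0.586 for Bst2 and from 0.0974 to 0.585 for Ifitm3.

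Ifi27, a small mitochondrial membrane protein, was the most abundant member, and its groups overlapped, as those of Ifit1 did. It had 119.6 and 170.7 CPM in cuprizone and 141.4 and 151.5 CPM in mock libraries, so that the cuprizone libraries lay on both sides of the mock libraries. The log2 fold was -0.08 (SE 0.22, 95% interval -0.60 to 0.44; edgeR adjusted p = 0.951), and 0.16 without cuprizone replicate 1. Its relative Ifi27l2a had 4.81 and 5.79 CPM against 6.97 and 7.59 CPM, a log2 fold of -0.53 (SE 0.48; edgeR adjusted p = 0.741).

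**Figure D3:**
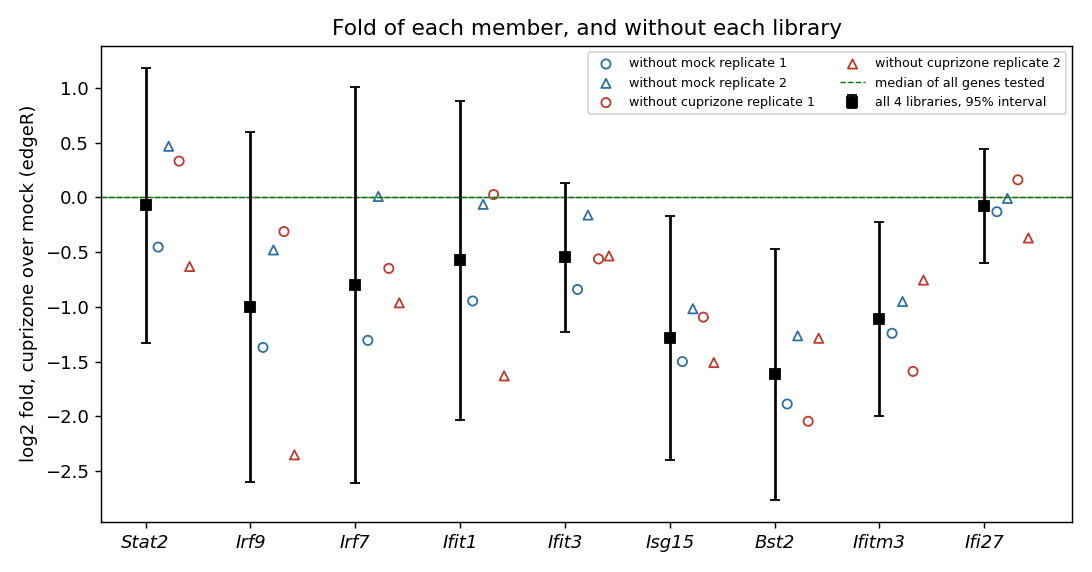
Log2 fold of cuprizone over mock (y axis, edgeR) for each member, with black squares and 95% intervals for all 4 libraries and open symbols for the fold without 1 library (blue without a mock, red without a cuprizone library; circles replicate 1, triangles replicate 2). The intervals of Isg15, Bst2 and Ifitm3 lie below 0 and their open symbols stay below -0.7, whereas the open symbols of Stat2, Irf7, Ifit1 and Ifi27 lie on both sides of 0.

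The members differed from each other in how their 2 libraries per group varied. In mock libraries replicate 2 was above replicate 1 in all 9 members, against 50.5% of all genes tested, and in cuprizone libraries in 6 of 9, against 49.2%. The 3 exceptions in the cuprizone pair were Bst2, Ifitm3 and Ifit3. Stat2, Irf9, Irf7, Ifit1, Isg15 and Ifi27 were higher in replicate 2 of both groups, as were 25.9% of all genes. This count was made after the values were seen. Across all genes the deviations of same-numbered libraries from their group means were not related (correlation 0.002 over 15816 genes, which are not independent). With 2 libraries per group this is 1 value, because both replicate numbers give the same correlation by construction. Nothing in the labels ties a number to a shared litter or day.

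Levels were compared between genes as CPM per kilobase of summed exon length. In mock libraries the order ran from Ifi27 (99.8 on average) through Ifitm3 (47.7), Ifit3 (29.1), Bst2 (16.8), Isg15 (14.2), Ifit1 (6.88), Irf9 (5.64) and Stat2 (1.81) to Irf7 (1.05). Bst2 and Isg15, Ifit1 and Irf9, and Stat2 and Irf7 are neighbours whose libraries overlapped, and the other neighbours did not. In cuprizone libraries Ifi27 again stood first (98.9), with Ifit3 (20.9) and Ifitm3 (23.2) overlapping, and with Isg15 (6.11), Bst2 (5.74) and Ifit1 (4.82) overlapping as well. The 3 transcription factors had the lowest means per kilobase in both groups. In cuprizone libraries, however, Irf9 (1.165 and 4.73 in replicates 1 and 2) overlapped Ifit1 (2.345 and 7.30) and Bst2 (7.25 and 4.23).

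Exon length differed between the members with the lowest folds and the others. Ifitm3, Isg15 and Bst2 are the 3 shortest, with 678, 756 and 903 nucleotides of summed exons, and all 3 were lower in cuprizone without overlap, with a median log2 fold of -1.29. Of the 6 longer members, from 1467 nucleotides in Ifi27 to 5926 in Stat2, 1 was lower without overlap and the median was -0.56. From the shortest to the longest, these 6 had log2 folds of -0.08 (Ifi27), -0.55 (Ifit3), -0.58 (Ifit1), -0.80 (Irf7), -0.997 (Irf9) and -0.07 (Stat2). Over all genes tested, 22.5% were lower without overlap up to 1000 nucleotides, and 22.3%, 20.1% and 17% in the longer classes. The median log2 fold was -0.20 up to 1000 nucleotides (970 genes), -0.13 from 1001 to 2000, -0.04 from 2001 to 4000 and 0.08 above 4000. Each of the 3 folds lay below the median of its length class, but the 3 genes were picked as the members with the lowest folds. Their place below that median therefore says nothing about length. The part of length in the folds of the 3 genes was not tested.

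**Figure D4:**
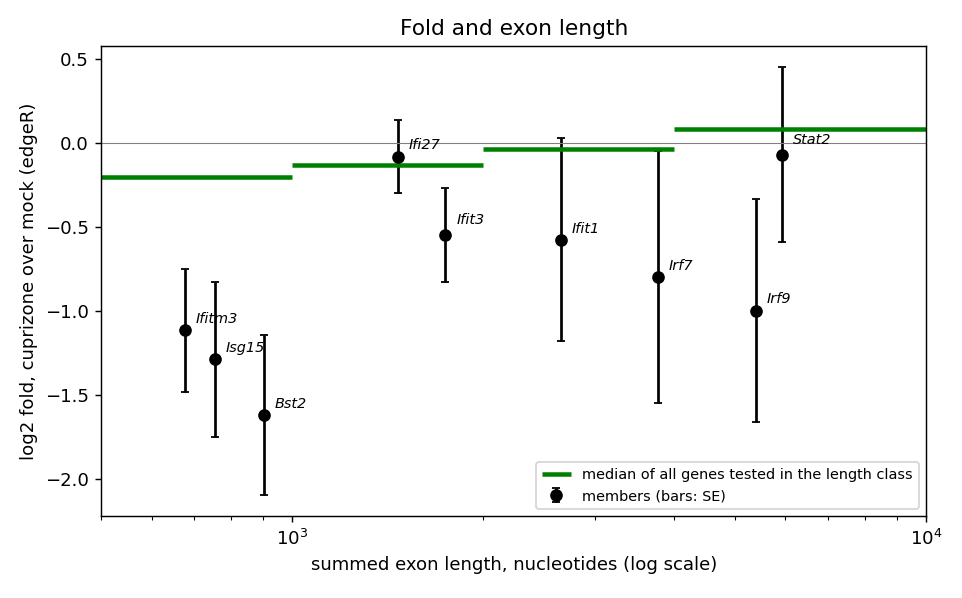
Log2 fold (y axis, edgeR, bars SE) against summed exon length (x axis, nucleotides, log scale) for the 9 members, with green lines for the median of all genes tested in 4 length classes. Ifitm3, Isg15 and Bst2 sit below the line of their class, which is at -0.20, and Ifi27 and Stat2 lie close to theirs.

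The rest of the interferon pathway, 109 genes listed by role, was spread over both directions. Of these, 70 could be tested, with a median log2 fold of -0.18, 39 negative and 31 positive folds. EdgeR called 0 of the 70, while 7 lower and 6 higher ones had an unadjusted p under 0.05, against 7.04% and 5.73% of all genes. DESeq2 called 4 (Ifi47, Ifi44 and Lgals3bp lower, Jak1 higher) and 4.55% of all genes, and limma-voom called 0 and 0.297% of all genes. Of the genes for interferons themselves, 19 of 20 had no count in any library and Ifna2 had 1 count, so their levels were not detectable below 3 counts, or 0.126 to 0.141 CPM depending on the library.

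Receptor genes lay lower, and 2 of the 3 kinase genes higher, without any of them passing the edgeR test over all genes. All 5 tested receptor genes had negative folds, with a median of -1.04, and 4 of them were below mock without overlap, against 18.9% of all genes. The groups of Ifngr1, the other chain of the interferon gamma receptor, overlapped (log2 fold -0.12). Ifnar1, the type I receptor chain, had 12.2 and 11.9 CPM in cuprizone and 25.9 and 21.4 CPM in mock libraries; its log2 fold was -1.04 (SE 0.32; edgeR adjusted p = 0.268). Ifngr2, a chain of the interferon gamma receptor, had 70.0 and 50.1 against 90.1 and 91.5 CPM and a log2 fold of -0.67 (SE 0.22; edgeR adjusted p = 0.301). The cuprizone libraries of both genes were below the mock libraries. Jak1, the kinase that serves both receptors, had 171.9 and 207.2 CPM in cuprizone and 94.3 and 125.9 CPM in mock libraries; its log2 fold was 0.71 (SE 0.21; edgeR adjusted p = 0.261, with 0.031 by DESeq2 and a range of 0.031 to 0.67 over the alternatives). Jak2, which serves the gamma receptor and was picked out after its values were seen, stood at 20.6 and 15.6 against 9.41 and 6.60 CPM, and the third kinase, Tyk2, had a negative fold.

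The remaining roles were mixed. The other transcription factors (6 tested) had a median log2 fold of 0.05. Irf2, the most abundant of them, had a log2 fold of 0.01 (SE 0.25), or -0.13 without cuprizone replicate 1. Irf8, a factor of microglia and other myeloid cells, had 0.366 and 0 CPM in cuprizone and 3.08 and 0.613 CPM in mock libraries. The log2 fold of Irf8 was -3.38 (SE 1.90, edgeR adjusted p = 0.540), and only mock replicate 1 exceeded 1 CPM. Genes that sense viral nucleic acid (8 tested) had a median of -0.17, and Tbk1, the kinase that activates Irf3, had 0.66 (SE 0.36), with 0.27 without mock replicate 1 and 1.22 without mock replicate 2. Genes that restrain the response (5 tested) had a median of -0.24. Their most abundant member, Pias1, an inhibitor of STAT binding, stood at 0.45 (SE 0.16; edgeR adjusted p = 0.313). Usp18, which removes Isg15 from proteins and blocks receptor signalling, had 5.63 and 8.82 CPM in cuprizone and 10.4 and 19.3 CPM in mock libraries; its log2 fold was -1.11 (SE 0.48; edgeR adjusted p = 0.419), and was -0.58 without mock replicate 2. Its groups did not overlap. Ube2l6, the enzyme that passes Isg15 on to its targets, had 9.53 and 20.7 against 15.2 and 11.6 CPM, with groups that overlapped and a log2 fold of 0.11 (SE 0.47), or -0.57 with cuprizone replicate 2 left out and -0.06 with mock replicate 2 left out.

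The further effectors (41 of 51 tested) had a median log2 fold of -0.23, with 24 negative and 17 positive folds. Cmpk2, an interferon-induced nucleotide kinase and the most abundant of them, had 38.2 and 58.3 CPM in cuprizone and 63.0 and 51.7 CPM in mock libraries, and its groups overlapped. Ifi47, an interferon-induced GTPase, had no count in either cuprizone library and 49 and 130 counts in the mock libraries, which at a limit of 3 counts per cuprizone library is at least 31.7-fold lower (edgeR adjusted p = 0.152). With Ifi47 at that bound the median of the effectors was the same.

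**Figure D5:**
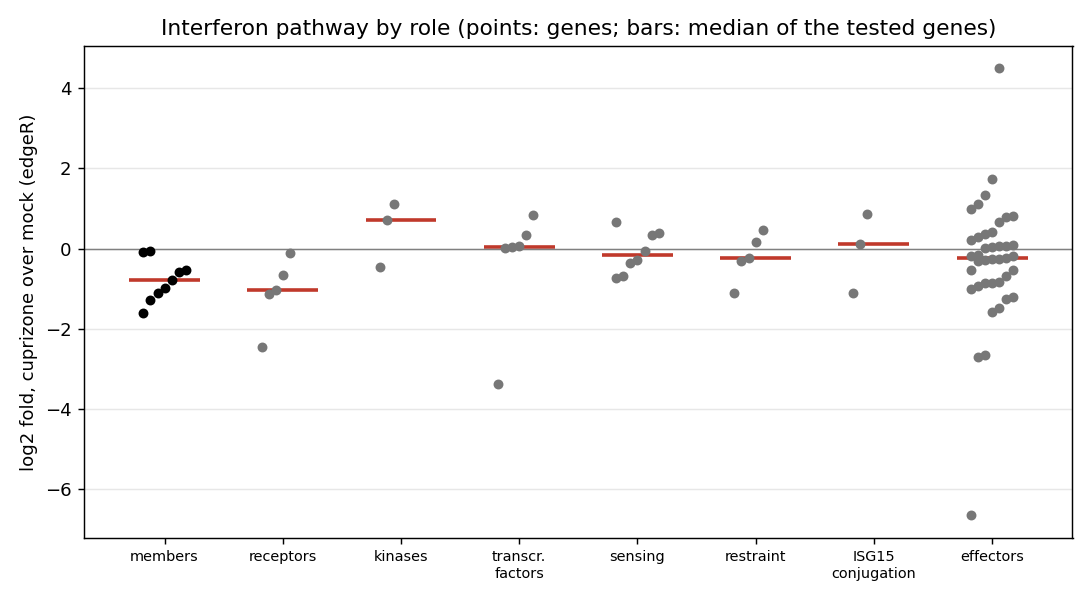
Log2 fold of cuprizone over mock (y axis, edgeR) for the 9 members (black) and the tested genes of each role of the interferon pathway (grey), with red bars for the median of the tested genes. Ifi47, at 0 in cuprizone, is not drawn but counts in its median. All points of the members and the receptors lie below 0, and the other roles spread over both sides.

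The libraries held 21209517 to 23822620 counts. All 10 astrocyte markers were counted in all 4 libraries, at a summed 5430 and 5998 CPM in cuprizone and 9144 and 8747 CPM in mock libraries. All 10 neuron and all 10 oligodendrocyte markers were too, so such counts do not set the labelled cell type apart. Neuron markers summed to more than astrocyte markers, 14300 and 14340 against 12530 and 12900 CPM. So did oligodendrocyte markers, 10060 and 13340 against 12760 and 14820 CPM. Gfap itself had a log2 fold of -1.20 (SE 0.15, edgeR adjusted p = 0.0838). With all 4 libraries kept, its adjusted p ran from 1.93e-10 (DESeq2) to 0.111 (edgeR with the replicate number as a block), and 5 of the alternatives called it. Rpl22, the tagged gene, had a log2 fold of -0.29 (SE 0.28), with -0.62 without cuprizone replicate 1 and -0.02 without cuprizone replicate 2. Mitochondrially encoded genes took 0.00327% and 0.00316% of counts in cuprizone and 0.0517% and 0.0503% in mock libraries.

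Some markers of other cell types that express interferon-stimulated genes were also lower in cuprizone libraries, as Isg15, Bst2 and Ifitm3 were. The 13 microglia and macrophage markers summed to 22.0 and 21.3 CPM in cuprizone and 36.2 and 48.5 CPM in mock libraries. Of these, 7 were lower without overlap, among them Cx3cr1 and Aif1, which were at 0 in both cuprizone libraries. Itgam was at 0 in all 4, while the groups overlapped in P2ry12, Tmem119, Trem2 and C1qa. The 10 endothelial markers summed to 5.18 and 17.7 CPM against 11.2 and 11.6 CPM, with Cdh5 at 0 in all libraries, and the 6 fibroblast markers to 21.2 and 22.2 against 65.3 and 44.2 CPM. Most of the fibroblast sum was Pdgfra, which oligodendrocyte precursors express as well, and without it the sums were 6.82 and 2.01 against 25.3 and 8.3 CPM. Precursor markers summed to 74.4 and 108.7 against 118.9 and 128.4 CPM. The part of these cells in the lower levels of Isg15, Bst2 and Ifitm3 was not tested. In such pooled pull-down RNA, fewer cells of a type, less RNA per cell and less carry-over of untagged RNA cannot be told apart.

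On build GRCm38 the members lie, per GENCODE M21, at chr10:128270559-128292849 (Stat2, ENSMUSG00000040033), chr14:55603571-55610030 (Irf9, ENSMUSG00000002325), chr7:141262706-141266481 (Irf7, ENSMUSG00000025498), chr19:34640871-34650009 (Ifit1, ENSMUSG00000034459), chr19:34583531-34588731 (Ifit3, ENSMUSG00000074896), chr4:156199424-156200818 (Isg15, ENSMUSG00000035692), chr8:71534255-71537456 (Bst2, ENSMUSG00000046718), chr7:141009586-141010770 (Ifitm3, ENSMUSG00000025492) and chr12:103434211-103440239 (Ifi27, ENSMUSG00000064215). All 9 are protein-coding, and counts are per whole gene, so exons and untranslated regions are not separated. The annotation release of the counts is not given in the sources used here. Exons of Irf9 share 123 bases with Rnf31 on the same strand, and those of Irf7 share 45 bases with Phrf1 on the opposite strand, so reads there cannot be assigned with certainty.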

How the data were processed

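RNA bound to HA-tagged ribosomes was sequenced from 2 cuprizone and 2 mock libraries. The authors deposited raw counts per Ensembl gene, 1 table per library; per the submitters' processing notes, FastQC 0.11.9, STAR 2.5.4b and featureCounts 1.6.0 were used with GRCm38 (mm10). Not given in the sources used here were strand setting, annotation release and multimapping rule. Symbols, exon lengths and coordinates come from GENCODE M21, which held 55230 of the 55471 ids.

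Tests ran in R 4.3.3 with edgeR 4.0.16, using filterByExpr on the groups (minimum count 10), TMM, robust legacy quasi-likelihood fit, 2-sided, Benjamini-Hochberg over 15816 genes, threshold 0.05. SE is the log2 fold divided by the square root of F. The script was tested on simulated data. CPM in the text is on library totals. Alternatives were other scalings, filters and edgeR settings, DESeq2 1.42.0, limma 3.58.1 (voom), each library left out, and the replicate number as a block. Left-out fits kept the same genes, and a lone library was assumed to vary like the other group.

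Members, lists and tests were chosen with earlier results of these data known. The text names the 9 members, Ifit3b, Ifi27l2a, Gfap and Rpl22, and, per role, called genes or else the most abundant tested gene and the one with the lowest p. The rule named 1 further gene, which is not reported here.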

Additional observations from a re-analysis of the deposited data

How the results depend on the processing

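No member was called under any of the 14 alternatives, and Isg15, Bst2, Ifitm3, Irf9 and Ifit3 kept negative folds in all of them. The count over all genes, 13 in the fit reported, was 191 with no filter on low counts, 68 at a mean CPM of at least 1, 57 with the bias-adjusted quasi-likelihood fit, 720 with DESeq2 and 47 with limma-voom, and ran from 5 without either mock library to 72 without cuprizone replicate 1. Pathway genes called were 1 with no filter (Ifi47), 4 with DESeq2 and 0 to 1 with a library left out (Gbp3 without cuprizone replicate 1). The median fold of the members ran from -1.24 to -0.16 with a library left out. Signs turned only with a library left out. Without cuprizone replicate 1 the folds were 0.1605 for Ifi27, 0.3314 for Stat2, 0.0259 for Ifit1 and -0.1349 for Irf2; without cuprizone replicate 2 they were -0.5712 for Ube2l6 and -0.1453 for Ifit3b. Without mock replicate 1 Ifit3b stood at -0.3279, and without mock replicate 2 the folds were 0.0086 for Irf7, 0.4668 for Stat2 and -0.0563 for Ube2l6. The other ends of these ranges were -0.3707 for Ifi27, -1.3057 for Irf7, -0.6312 for Stat2, -1.6303 for Ifit1, 0.1446 for Irf2, 0.569 for Ube2l6 and 0.6375 for Ifit3b. The cause was not tested. With the replicate number as a block, 10 genes were called over all genes and 0 members. Members lower at an unadjusted p under 0.05, 3 in the fit reported, were 0 without mock replicate 2, 2 without cuprizone replicate 1, and 4 without cuprizone replicate 2, without mock replicate 1 and with the block. The labels do not tie the numbers across groups, and the correlation of same-numbered libraries was 0.002. Depth limits Irf7 most, with 47 to 120 counts per library.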
